A study of Phaseolus vulgaris with 6 samples.

Results

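Phvul.011G183100, Phvul.011G183400, Phvul.011G183600 and Phvul.011G183900 are neighbouring genes of common bean (Phaseolus vulgaris) that encode proteins annotated as MLP-like (major latex protein-like) or as polyketide cyclase/dehydrase and lipid transport proteins. They were picked out of the 19598 genes of the deposited table by their identifiers, because nearby copies had opposite patterns in the navy bean genotypes Albion and Voyager. The genotype difference of these 4 genes is therefore given as a description, with no test. All of them lie on chromosome 11 of the v1.0 genome, between positions 45996186 and 46083211.

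Major latex proteins were first described in the latex of opium poppy and belong to the Bet v 1 superfamily, which also holds the PR-10 defence proteins and the PYR/PYL receptors of abscisic acid. Proteins of this superfamily fold around a hydrophobic cavity that can hold small ligands such as lipids and hormones. In several plants the MLP genes are found in tandem groups, and members of the family are known for abundant transcripts in fruits and flowers and for roles in stress and defence. Arabidopsis MLP43 has been linked to abscisic acid responses and drought tolerance. The annotations used here are those of the best match in Arabidopsis thaliana, so MLP-like protein 43 is the name of an Arabidopsis gene given to many bean copies.

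RNA was sequenced from developing pods of 3 pots of Albion and 3 pots of Voyager, with seeds and pod wall ground together and pods combined within each pot. The labels give an age of 20 days after anthesis for all samples, and the methods of the study give an earlier age. Both genotypes received the same fertilizer solution, which contained zinc. The labels list Albion as low in zinc and Voyager as normal, while the header of the deposited table says High Zinc. The labels were read as a trait of each genotype since the fertilization was the same. The deposited table holds 1 FPKM value (sequenced fragments of a gene, scaled to its transcript length and to the number of mapped fragments) per gene and genotype, in which the authors combined the 3 replicates. No spread between replicates can be given from it, and it does not list the number of fragments behind an FPKM value. The authors' own Cuffdiff comparison over the replicates stands in the same table and was not used, so whether a difference exceeds the variation among pots was not tested here. In a ground pod, fewer cells of a type and less RNA per cell cannot be told apart.

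Differences are given as log2(FPKM + 1) in Voyager minus log2(FPKM + 1) in Albion, and a gene was counted as past 2-fold where this difference was at least 1 in size. By that rule 844 of the 19598 listed genes (4.31%) were past 2-fold, 499 of them higher in Voyager (2.55%) and 345 higher in Albion (1.76%). The median difference of all listed genes was 0.07. All 4 of the genes described here were past 2-fold, 2 in each direction, as their selection requires.

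The study describes the developing seed as a larger part of pod weight in Albion than in Voyager, so the tissue make-up of the ground pods differed between the genotypes. Transcripts with annotation words of seed and of green tissue were found in the pods of each genotype. The 153 genes of a seed list (cupin, late embryogenesis, 2S albumin, oleosin and seed maturation annotations) made up 3.17% of all FPKM in Albion and 3.00% in Voyager, with 2 and 1 of them listed at 0. The 2S albumin annotation names a superfamily shared with lipid transfer proteins, so the list does not measure seed content. A list of 96 photosystem, light harvesting and ribulose bisphosphate carboxylase genes made up 3.05% and 2.49%, with none listed at 0. These shares also depend on the total, which was higher in Voyager. In summed FPKM the seed list had 26297 in Albion and 28491 in Voyager, the opposite direction to its share. The green list had 25361 and 23667. The part of such tissue differences in the MLP-like values was not tested.

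Phvul.011G183100 (MLP-like protein 43, 45996186 to 45997733) was near 0 in Albion and abundant in Voyager. It had 0.39 FPKM in Albion and 196 FPKM in Voyager. Its rank by FPKM was 19314 of the listed genes in Albion and 725 in Voyager. The difference of 7.15 was number 1 in size among all listed genes. Because the Albion value is close to 0, the size of the difference depends on the constant added before the logarithm, and with 10 FPKM in place of 1 it was 4.31.

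Phvul.011G183400 (polyketide cyclase/dehydrase, 46026290 to 46027718) had the same pattern. It was listed with 2.33 FPKM in Albion and 256 FPKM in Voyager, where it ranked 552. Its difference of 6.27 was number 2 in size among all listed genes. The gap between these genes along the chromosome was 28.6 kb, with 2 listed genes in it, and the order of their levels was the same in both genotypes.

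Phvul.011G183600 (polyketide cyclase/dehydrase, 46039843 to 46041374) had the opposite direction at a far higher level. It had 3106 FPKM in Albion and 973 FPKM in Voyager, and it ranked 18 and 79 in the genotypes. Its difference was -1.67, number 280 in size. Although lower in Voyager, this copy was still the most abundant of the neighbouring MLP-like genes there. It begins 12.1 kb after the end of Phvul.011G183400, and only Phvul.011G183500 is listed between them.

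Phvul.011G183900 (MLP-like protein 43, 46082396 to 46083211) was also higher in Albion. It had 732 FPKM in Albion and 97.6 FPKM in Voyager, a difference of -2.89, number 53 in size. It ranked 105 in Albion and 1539 in Voyager.

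FPKM values are scaled to transcript length, so the levels of these genes can be ordered within a genotype. In Albion, Phvul.011G183600 was highest, followed by Phvul.011G183900, Phvul.011G183400 and Phvul.011G183100. In Voyager, Phvul.011G183600 was again highest, and the order of the rest was Phvul.011G183400, Phvul.011G183100 and Phvul.011G183900. The last of these places in Voyager are separated by 196 and 97.6 FPKM, and without replicate values it cannot be said which neighbours in either order differ beyond their spread. The plot of all listed genes places Phvul.011G183100 and Phvul.011G183400 far above the diagonal and the other two below it.

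**Figure D1:**
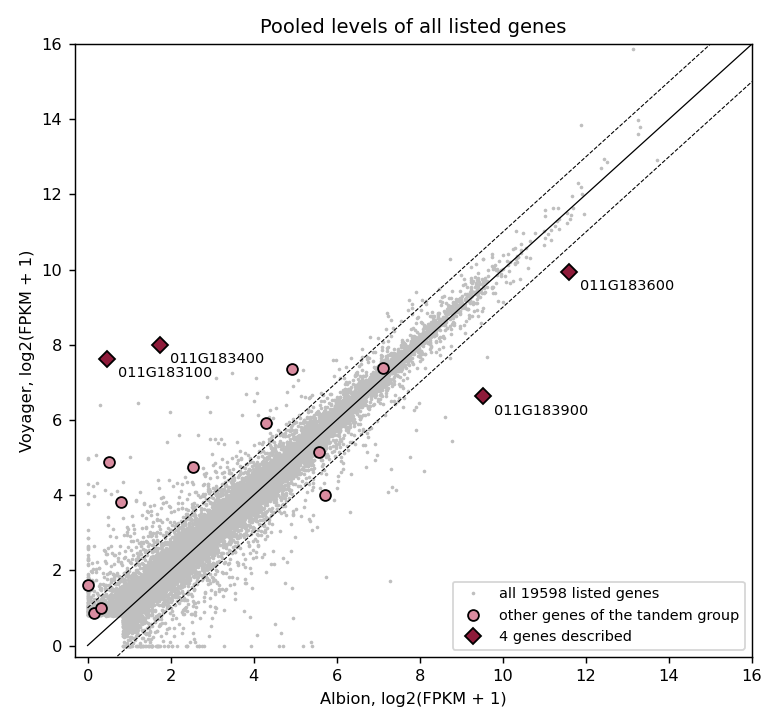
Pooled level of each of the 19598 listed genes as log2(FPKM + 1) in Albion (x axis) and Voyager (y axis), with the solid line at equal levels and the dashed lines at a difference of 1 in either direction. Of the 4 labelled genes, Phvul.011G183100 and Phvul.011G183400 lie above the dashed lines, and Phvul.011G183600 and Phvul.011G183900 below them.

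These genes are part of a larger tandem group. Between 45933982 and 46115789, a span of 181.8 kb, 16 genes were listed, and 15 of them had an MLP-like or polyketide cyclase annotation. The exception was Phvul.011G183200, an acyl-CoA N-acyltransferase gene with an Albion value of 136 FPKM and a Voyager value of 99.4. None of the 15 genes overlapped another listed gene. Copies of a tandem group can share sequence and thus reads, and how the authors' software divided reads among these copies is not known from the table, so the split of expression between neighbouring copies is uncertain. Sequences of these genes were not used here.

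Of the 15 genes of the tandem group, 8 were past 2-fold with the higher value in Voyager, 3 were past 2-fold with the higher value in Albion, and 4 were within 2-fold. The shares of all listed genes past 2-fold were 2.55% and 1.76% in these directions. Since the 4 genes were selected from this contrast, the counts are only a description; among the other 11 genes of the group, 6 were higher in Voyager, 1 was higher in Albion and 4 were within 2-fold. The median difference over the group was 1.62, and the differences ranged from -2.89 to 7.15. No gene is listed with under 0.5 FPKM in both genotypes. Copies under 0.5 FPKM in Albion are therefore listed only through Voyager, where the lowest value in the group was 0.82 FPKM. No copy is listed only through Albion, so part of the lean towards Voyager can come from the listing.

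**Figure D2:**
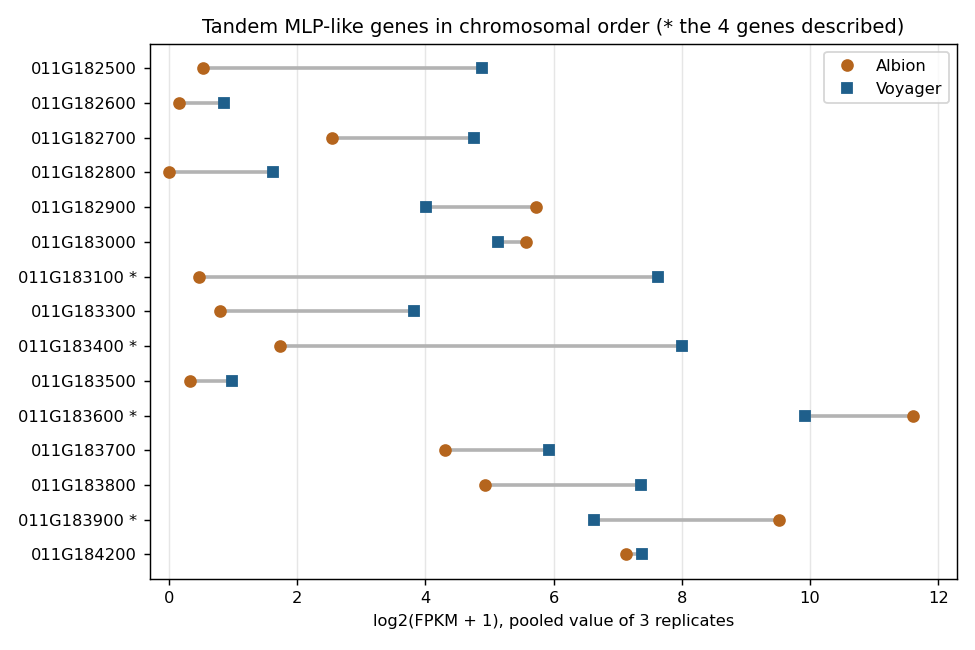
Level of the 15 genes of the tandem group in chromosomal order, as log2(FPKM + 1) of the pooled value in Albion (circles) and Voyager (squares), joined by a line; an asterisk marks the 4 selected genes. In Albion 6 genes are below 1 FPKM, and in Voyager 2 are.

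At the start of the group, 4 copies had higher values in Voyager. All but Phvul.011G182700 were under 0.5 FPKM in Albion and so are listed only through Voyager. Phvul.011G182500 had 0.44 FPKM in Albion and 28.5 in Voyager, a difference of 4.36. Phvul.011G182700 had 4.82 and 26.0 FPKM. Phvul.011G182600 stayed under 1 FPKM in both genotypes, and Phvul.011G182800 was listed at 0 in Albion and had 2.07 FPKM in Voyager. The last of these was counted as past 2-fold, but no fold is given against a value of 0.

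The next copies, Phvul.011G182900 and Phvul.011G183000, turned towards Albion. Phvul.011G182900 had 51.9 FPKM in Albion and 15.1 in Voyager, a difference of -1.71. Phvul.011G183000 had 46.4 and 34.2 FPKM and was within 2-fold. Only 11.8 kb lie between the end of this gene and the start of Phvul.011G183100, the copy with the largest difference towards Voyager.

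Between the selected genes, Phvul.011G183300 had 0.74 FPKM in Albion and 13.1 in Voyager, a difference of 3.02. This put it in the same direction as Phvul.011G183400, which begins 2.16 kb further on. Phvul.011G183500 was under 1 FPKM in both genotypes, with 0.25 and 0.98 FPKM. Phvul.011G183700 had an Albion value of 18.8 FPKM and a Voyager value of 59.8, and Phvul.011G183800 had 29.5 and 163. The direction thus changed from Albion to Voyager and back within 3 successive gaps, from Phvul.011G183600 to Phvul.011G183900. The spans of Phvul.011G183800 (821 bp) and Phvul.011G183900 (816 bp) were nearly equal, and these adjacent genes had opposite directions. Phvul.011G184200, the last copy, was within 2-fold, with 139 FPKM in Albion and 165 in Voyager.

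Read in order along the chromosome, the 11 genes past 2-fold changed direction 5 times in 10 steps. In the span of the group, 3 of 15 pairs of neighbouring listed genes were both past 2-fold in opposite directions, and a further 3 pairs were past 2-fold in the same direction. Over all chromosomes, 24 of 19523 neighbouring pairs were opposite (0.123%) and 101 had the same direction (0.517%). The selected genes were chosen for that pattern, so nothing is read from this difference.

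Outside the tandem group, the genes nearest to it were within 2-fold. Phvul.011G182400, an HAD acid phosphatase gene on the near side, had 19.9 FPKM in Albion and 21.1 in Voyager. On the far side, the HSP20-like chaperone gene Phvul.011G184300 had 1.75 and 0.68 FPKM, and the ribonuclease gene Phvul.011G184700 had 3.83 and 3.81. Within 250 kb of the selected genes, 21 listed genes had other annotations or none, and 5 of them were past 2-fold, 2 higher in Voyager and 3 higher in Albion. Over all listed genes 4.31% were past 2-fold, with 2.55% and 1.76% in these directions, which are smaller shares than among these 21 genes. Their differences ranged from -1.56 to 1.73, a narrower range than within the group. The median over these 21 genes was 0.08, close to the 0.07 of all listed genes.

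**Figure D3:**
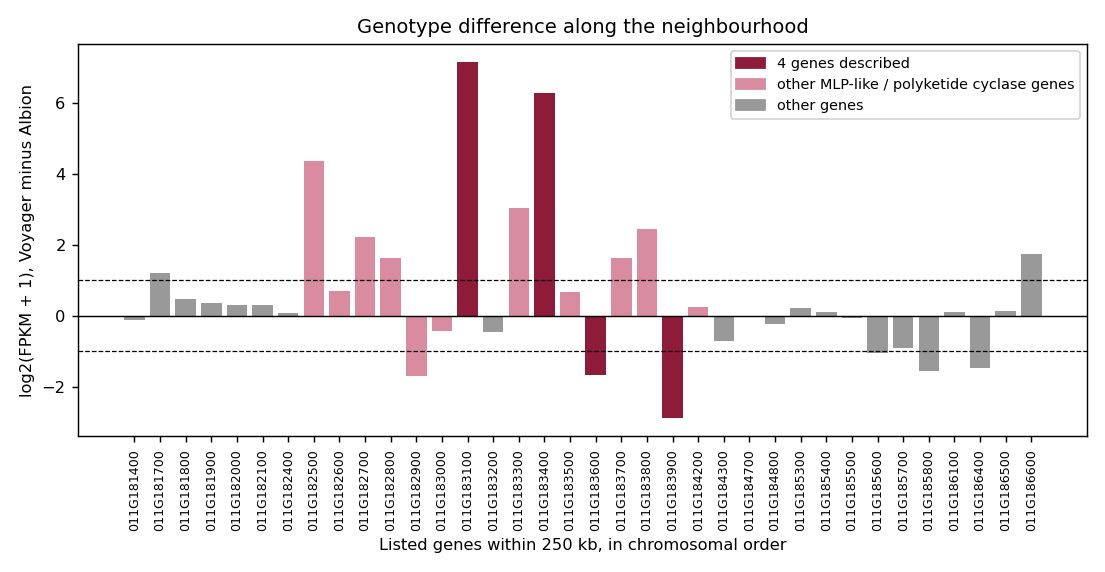
Difference in log2(FPKM + 1), Voyager minus Albion, for the 36 listed genes within 250 kb of the selected genes, in chromosomal order; dashed lines mark a difference of 1 in either direction. Bars of the tandem group reach from -2.89 to 7.15, and bars of the other genes lie between -1.56 and 1.73.

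Across the 15 genes of the group, Spearman's rho between Albion and Voyager FPKM was 0.60, and Pearson's r on the log2(FPKM + 1) scale was 0.64. Across all 19598 listed genes the same coefficients were 0.97 and 0.97, and across the 21 other genes within 250 kb they were 0.91 and 0.93. The points of each coefficient are genes that share the same libraries and are not independent replicates, and the group holds the genes chosen for their differences.

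Summed over the 15 genes, expression reached 4133 FPKM for Albion and 2031 for Voyager, a ratio of 2.03. Without Phvul.011G183600 the sums were 1027 and 1058 FPKM. Those near-equal sums balance opposite differences, since Phvul.011G183900 also had more in Albion, with 732 FPKM against 97.6 in Voyager. The excess in Albion lies in genes that were selected for their difference, and over the 11 genes that were not selected the direction turned, with 292 FPKM in Albion and 509 in Voyager, a Voyager to Albion ratio of 1.74. The 8 genes past 2-fold towards Voyager summed to 57.0 FPKM in Albion and 745 FPKM in Voyager, and the 3 towards Albion to 3890 and 1086 FPKM.

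The make-up of the summed expression differed as well. Phvul.011G183600 contributed 75.2% of it in Albion and 47.9% in Voyager. Phvul.011G183900 contributed 17.7% in Albion and 4.81% in Voyager. Phvul.011G183400 and Phvul.011G183100 contributed 12.6% and 9.65% in Voyager, but only 0.0564% and 0.00944% in Albion. Phvul.011G183800 and Phvul.011G184200 had 8.04% and 8.10% in Voyager. The effective number of copies, calculated as 1 over the sum of the squared shares, was 1.67 in Albion and 3.68 in Voyager. Without Phvul.011G183600 it was 1.88 and 6.44. Over the 11 genes that were not selected it was 3.36 and 4.28, so most of the contrast in make-up lies in genes chosen for their genotype difference. At least 10 FPKM was reached by 7 of the 15 genes in Albion and by 12 in Voyager.

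**Figure D4:**
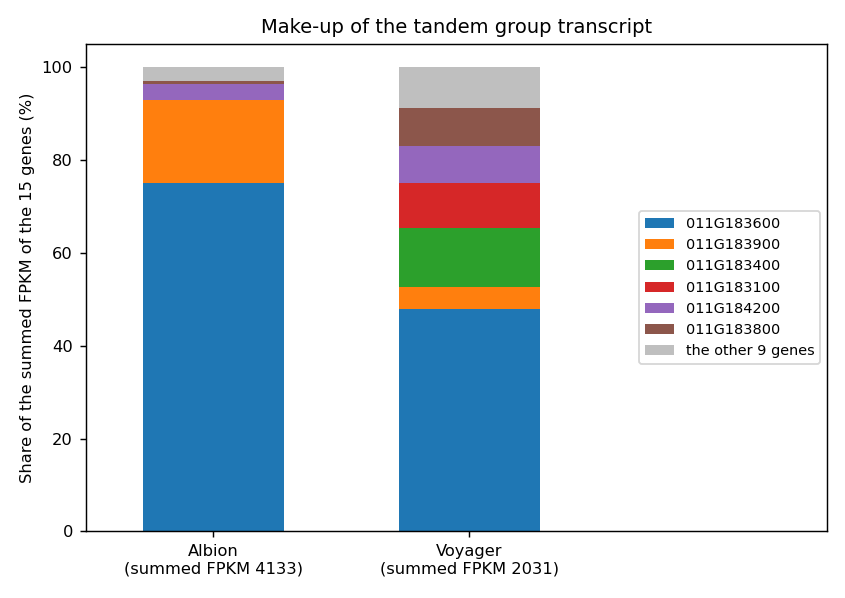
Share of the summed FPKM of the 15 genes of the tandem group contributed by each of 6 genes and by the other 9 together (y axis, percent), in Albion and in Voyager. Phvul.011G183600 makes up 75.2% in Albion and 47.9% in Voyager, where 5 further genes are each between 4.81% and 12.6%.

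Elsewhere in the genome, 24 listed genes carried an MLP-like or polyketide cyclase annotation. Of these, 6 were past 2-fold with the higher value in Voyager, 1 with the higher value in Albion, and 17 were within 2-fold, with a median difference of 0.10. The shares of all listed genes in these directions were 2.55% and 1.76%. The 8 MLP-like genes among them all had higher values in Voyager on the deposited scale, with Phvul.009G253000 almost equal and turning slightly towards Albion after median centring or scaling to equal sums, and 5 were past 2-fold. Only Phvul.003G109100 stayed past 2-fold when 10 FPKM was added in place of 1. After median centring 3 of the 8 did, and 2 of the 8 did with both genotypes scaled to equal sums. The most abundant was the MLP-like protein 423 gene Phvul.003G109100 on chromosome 3, which had an Albion value of 214 FPKM and a Voyager value of 586. Phvul.005G058600, the only MLP-like protein 43 gene listed outside the tandem group, had 10.3 and 22.0 FPKM.

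MLP-like protein 423 genes also lie side by side on chromosomes 2 and 9. The chromosome 2 genes Phvul.002G209400 and Phvul.002G209500 had differences of 1.22 and 1.06, both towards Voyager. On chromosome 9, Phvul.009G252300 had 6.61 FPKM in Albion and 15.7 in Voyager, Phvul.009G252400 had 10.8 and 17.0, Phvul.009G252900 had 3.21 and 5.75, and Phvul.009G253000 had 14.6 in both. No neighbouring MLP-like copies in these smaller groups had opposite directions past 2-fold. Summed FPKM over all listed genes was higher in Voyager by 0.19 on the log2 scale. The median difference of genes averaging at least 1 FPKM was only 0.07, so equal sums shift the values by more than the median gene differs.

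**Figure D5:**
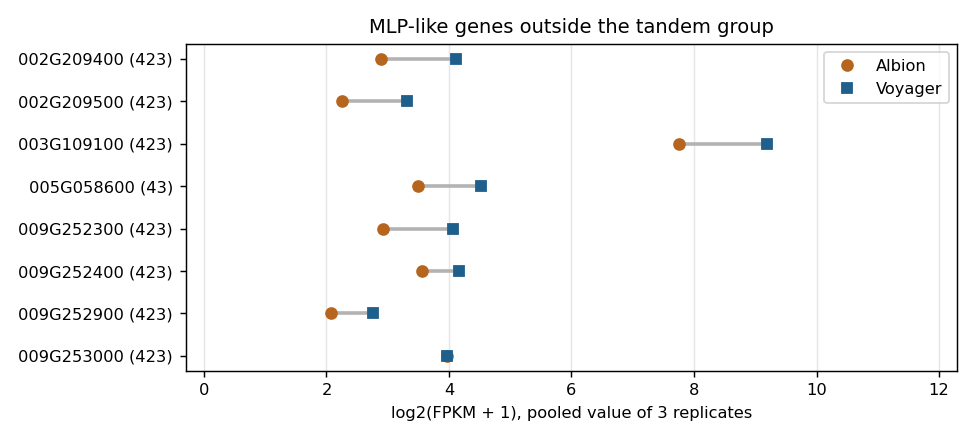
Level of the 8 MLP-like genes outside the tandem group, as log2(FPKM + 1) of the pooled value in Albion (circles) and Voyager (squares); the number after each name is the Arabidopsis MLP it was matched to. On the deposited scale 7 lie towards Voyager and Phvul.009G253000 is at nearly equal levels, turning slightly towards Albion after median centring or scaling to equal sums.

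Of the 16 polyketide cyclase genes elsewhere without an MLP-like annotation, 14 were within 2-fold. Over all listed genes 4.31% were past 2-fold. Polyketide cyclase genes with the symbols of abscisic acid receptors (PYR1 and PYL5) numbered 3 and were all within 2-fold. Phvul.002G141900, one of the PYR1 genes, had 127 FPKM in Albion and 125 in Voyager. A further 5 genes annotated as PYR1-like or as components of the abscisic acid receptor were also within 2-fold, with Phvul.010G112500 the most abundant at 133 and 141 FPKM. Most listed genes were within 2-fold, so these small counts do not set the receptor genes apart. The exceptions among the polyketide cyclase genes elsewhere were Phvul.004G170100, with 9.85 and 2.07 FPKM, and Phvul.005G021600, with 2.17 and 9.30 FPKM.

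The genes outside the family with levels most like those of each selected gene were found by the Euclidean distance between their pairs of log2(FPKM + 1) values, one per genotype. With only 2 values per gene this measure compares levels and direction alone. For Phvul.011G183100 the nearest were the NB-ARC disease resistance gene Phvul.004G076100, with 0.24 and 83.8 FPKM at a distance of 1.23, and the Rossmann-fold gene Phvul.008G116500, with 1.33 and 86.5 FPKM at 1.39. For Phvul.011G183400 they were the CP12 gene Phvul.007G214200, with 7.52 and 138 FPKM at 1.62, and again Phvul.008G116500 at 1.64. For Phvul.011G183600 they were a sucrose synthase gene, Phvul.003G127500, with 2025 and 1622 FPKM at 0.96, and the lipid transfer gene Phvul.006G138700, with 2290 and 1778 FPKM at 0.97. Both were within 2-fold, unlike Phvul.011G183600, so they were near it in level and not in the size of the genotype difference. For Phvul.011G183900 they were the cysteine proteinase gene Phvul.009G170800, with 791 and 203 FPKM, and SCR-like 11 (Phvul.008G023100), with 392 and 66.1 FPKM, both at 1.06.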

How the data were processed

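Pod RNA of 3 Albion and 3 Voyager samples was read by the authors in pairs of 75 bp. After quality filtering, the authors aligned the reads to the v1.0 genome with TopHat 1.4.1 and Bowtie 0.12.7 and estimated abundance with Cufflinks 1.3.0. The deposited FPKM values, rounded to 2 decimals, are 1 pooled value per gene and genotype. Fold changes, test statistics, p-values, q-values and calls of the authors' Cuffdiff comparison are in the same table and were not used. No gene is listed with less than 0.5 FPKM in both genotypes and 598 with less than 1, so a copy low in one genotype may be listed because it is higher in the other. Summed FPKM was 830694 in Albion and 950155 in Voyager.

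Differences of log2(FPKM + 1) were computed in Python 3.11.15 with numpy 2.4.6 and pandas 2.3.3, with no filter and a 2-fold threshold, and the counting was checked on simulated data. The tandem group was taken as the family genes within 250 kb of the selected genes. The genes named are the selected ones, those between them and the nearest 3 on each side, family genes with at least 10 FPKM, and the 2 genes nearest in level to each selected gene. Not all family genes the rule takes are named singly. Phvul.011G182400, Phvul.011G182600, Phvul.002G209500, Phvul.009G252900, Phvul.004G170100, Phvul.005G021600 and the genes of the abscisic acid receptor were added for context, some after their values were seen. The members and lists were chosen with earlier results of these data known. Alternatives covered the pseudocount, the scaling, filters on low values, the threshold, the width of the neighbourhood and the annotations that define the family.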

Additional observations from a re-analysis of the deposited data

How the results depend on the processing

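The differences of the 4 selected genes kept their direction and stayed past 2-fold in all 16 recalculations, with other pseudocounts, median-centred values or equal column sums. Adding another constant to both values cannot reverse a direction, and the genes were selected for these differences. The recalculations therefore only describe how the size depends on the setting and are no support for the differences. Phvul.011G183100 ranged from 4.31 to 8.64, Phvul.011G183400 from 4.43 to 6.72, Phvul.011G183600 from -1.87 to -1.66 and Phvul.011G183900 from -3.09 to -2.79, and the order of their mean levels was the same with a pseudocount of 0.1. The number of all listed genes past 2-fold depended on low values. Those higher in Voyager numbered 882 with a pseudocount of 0.1, 108 with 10, 175 where genes averaging under 10 FPKM were left out and 99 at a 4-fold threshold, and those higher in Albion 573, 70, 121 and 68. Family genes higher in Voyager numbered 8 with a pseudocount of 10 in place of 14, and those higher in Albion 2 among MLP-like annotations in place of 4. Within 100 kb, 3 genes were higher in Albion in place of 6. In the tandem group, 1 gene was higher in Albion at a 4-fold threshold, an alternative chosen after seeing the data, in place of 3. No paired analysis was possible because the table has 1 pooled value per genotype, and for the same reason no replicate could be left out. Of the other copies, Phvul.011G182600 and Phvul.011G183500 were past 2-fold with a pseudocount of 0.1 (2.06 and 1.63), and Phvul.011G182800 was not with 10 (0.27). Phvul.009G253000, almost equal in the genotypes, turned to -0.064 after median centring and -0.18 with equal column sums. The 5 MLP-like genes outside the group past 2-fold towards Voyager became 1 with a pseudocount of 10, 3 after median centring and 2 with equal column sums. Protein identity and promoter motifs of the copies were not run. The table lists no fragment counts, so the counting error of values under 1 FPKM was not computed.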

Other observations

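Genes with annotations of pathogenesis and defence, the broader class to which PR-10 relatives of the MLP proteins belong, were mostly higher in Voyager where they were past 2-fold. Of 52 listed genes with pathogenesis-related, chitinase, thaumatin, osmotin, glucanase or defensin annotations, 15 were past 2-fold towards Voyager and 2 towards Albion, beside 2.55% and 1.76% of all listed genes. The word glucanase also took in 4 cell wall genes, 3 xyloglucanases and an expansin, all within 2-fold, and without them, a choice made after seeing the data, the list held 48 genes and the same 15 and 2 past 2-fold. The median difference of the 52 genes was 0.36, against 0.07 for all listed genes. Of the 15, Phvul.001G128500, Phvul.002G205700, Phvul.006G197100, Phvul.006G197200 and Phvul.009G116300 were under 0.5 FPKM in Albion, so they are listed only through Voyager. The 2 towards Albion, Phvul.002G114200 and Phvul.004G024600, had 10.8 and 17.7 FPKM in Voyager and are not listed through Albion alone. How far the listing adds to this lean was not tested. The values have no replicate error, and no test was made.

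As in the MLP-like group, chitinase copies lay close together. The basic chitinase genes Phvul.009G116500 and Phvul.009G116600 on chromosome 9 had 10.1 and 15.5 FPKM in Albion and 150 and 137 FPKM in Voyager, and neighbouring Phvul.009G116700 had 4.33 and 25.2 FPKM. On chromosome 2 the neighbouring basic chitinase genes had opposite directions, with an Albion value of 79.1 FPKM and a Voyager value of 10.8 for Phvul.002G114200, and 4.48 and 15.5 FPKM for Phvul.002G114100. A thaumatin gene, Phvul.004G024600, had values of 159 FPKM (Albion) and 17.7 FPKM (Voyager), and an osmotin 34 gene, Phvul.002G155500, had 6.68 and 73.7 FPKM. Other osmotin 34 genes leaned towards Albion within 2-fold, with 3.36 and 1.51 FPKM for Phvul.002G286600 and 2.51 and 1.09 FPKM for Phvul.002G286500. These genes were chosen after their values were seen.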
